A study of Mus musculus with 6 samples.

Results

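The retinoid genes described here are 9 genes of vitamin A uptake, binding, conversion and sensing, *Rbp4*, *Stra6*, *Crabp1*, *Crabp2*, *Aldh1a1*, *Aldh1a2*, *Aldh1a3*, *Dhrs3* and *Rarb*. They were taken by gene symbol from a table of read counts that lists 24421 genes, and all 9 symbols were in it. The counts come from 6 RNA sequencing libraries of primary cultures labelled as endothelial cells of the stria vascularis. This is the vascularised epithelium in the lateral wall of the cochlea, and the study's methods took it together with the spiral ligament. Libraries from 3 *Nhe6*-knockout cultures and 3 wildtype cultures were compared to ask whether gene expression differs when the endosomal sodium and proton exchanger NHE6 is missing. The knockout is present in all cells of the mouse, no culture was treated, and the cells came from pups on postnatal days 10 to 12. Each culture pooled cells of several mice, purified by sorting and then expanded in endothelial medium with fetal bovine serum. The labels give C57BL/6N as the background of both genotypes, whereas the study's methods describe backcrossing to a C57BL/6J background. The sex of the pups and the retinoid content of the serum are not given in the sources used here.

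Retinol, the transport form of vitamin A, circulates bound to retinol-binding protein (*Rbp4*) and enters cells through the membrane receptor STRA6. Inside the cell it is oxidised reversibly to retinaldehyde, which DHRS3 reduces back to retinol. The retinaldehyde dehydrogenases ALDH1A1, ALDH1A2 and ALDH1A3 oxidise retinaldehyde irreversibly to retinoic acid. Retinoic acid is bound in the cytosol by CRABP1 and CRABP2, of which CRABP2 delivers it to nuclear receptors such as RARβ (*Rarb*), and it is degraded by the CYP26 enzymes. *Rarb*, *Dhrs3*, *Stra6* and *Cyp26a1* are textbook target genes of retinoic acid, and the signal is known for its part in patterning the inner ear.

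The best known DNA element of this pathway is a direct repeat of half-sites to which a retinoic acid receptor binds with its partner RXR. It was looked for in the RefSeq promoter windows of GRCm38.p6, which run from 250 bases before to 50 bases after a gene's start. The form searched was DR5, a pair of half-sites NGNTCA (with A or G as the N at position 1 and G or T as the N at position 3) in the same orientation with 5 bases between them, on both strands. Windows were found for 7 of the 9 genes (14 windows), and *Crabp2* and *Aldh1a3* had none. The repeat stood in 32 of all 32851 windows (0.0974%). Of the 7 genes only *Rarb* held it, and among 45 other pathway genes with a window only *Cyp26a1* did. Both stretches are shown because *Rarb* differed most between libraries among the 6 of the 9 genes tested below while *Cyp26a1* had no reads. Capitals mark the repeat.
*Rarb*: gggaagGGTTCACCGAAAGTTCActcgcat
*Cyp26a1*: acaaattAGTTCACCCAAAGTTCAtcttta
The first is chr14:16575506-16575535 on the minus strand, the strand of *Rarb*, with the repeat 53 to 37 bases before the RefSeq start. GENCODE M21 annotates these bases as 5′ UTR of exon 1 in other *Rarb* transcripts that start further upstream. The second is chr19:37697770-37697799, read from the minus strand, with the repeat 32 to 16 bases before the start of *Cyp26a1*, a gene of the plus strand. A match of letters is a description and says nothing about occupancy in these cells.

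Between 25587097 and 29126232 reads per library were assigned to genes. Normalized counts are reads scaled by edgeR's TMM method to the mean library size, and values per library are given in order of replicate number. Wildtype replicate 2 stood apart on the first principal component, which held 50.2% of the variance, at 106 against -28.5 to -6.52 for the other libraries. *Nhe6*-knockout replicates 1 and 2 were unusually close, with a median chi-square between their counts of 3.26 times the sampling noise, against 15.8 to 61.3 times for the other pairs of libraries of 1 genotype. They differed by more than sampling noise and were kept as separate libraries. This difference alone cannot tell separate cultures from repeated preparations of the same culture. Among 15 endothelial markers, *Cldn5* had 0 reads in all 6 libraries and *Pecam1* at most 8 reads in any, whereas *Emcn* had 9897 to 18387 normalized counts in 5 libraries and 409 in wildtype replicate 2. The filter on low counts was passed by 9 of the 15 endothelial and by all 12 listed fibroblast markers. *Cdh5*, an endothelial cadherin, had 179 to 232 normalized counts in knockout and 2509 to 5194 in wildtype libraries, and *Pdgfra*, a fibroblast receptor, 10076 to 19048 over all 6. Not all defining markers of the labelled cell type were thus present.

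None of the 9 genes differed between the genotypes past an adjusted p of 0.05 when all 6 libraries were used, in edgeR's test or in DESeq2's. After the filter, 6 of the 9 genes could be tested (*Rbp4*, *Crabp2*, *Aldh1a1*, *Aldh1a2*, *Dhrs3* and *Rarb*), while *Crabp1*, *Aldh1a3* and *Stra6* had too few libraries with enough reads. Over all 13479 genes tested, 9 passed in edgeR, or 0.0668%. In DESeq2, 627 of 13381 genes with an adjusted p passed, or 4.69%. An unadjusted p under 0.05 in edgeR's test was found for 1 of the 6 genes, *Aldh1a1*, against 11.8% of all genes tested. Of the 6 log2 fold changes 5 were below 0, with a median of -0.47 against -0.02 over all genes tested. None of the 9 genes had genotypes that did not overlap, against 19.9% of all genes tested. The highest library was wildtype replicate 1 for *Crabp2* and *Dhrs3* and wildtype replicate 3 for *Aldh1a2*. Wildtype replicate 2 lay outside the range of the other 5 for 5 of the 6 tested genes, against 53.3% of all genes tested. It lay at least 4-fold from their median for 1 of the 6, *Rarb*, against 8.47%. The other libraries lay outside the range of the remaining 5 for 16.7% to 42.8% of all genes tested. In a bulk library, fewer cells that express a gene and less RNA per cell cannot be told apart.

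**Figure D1:**
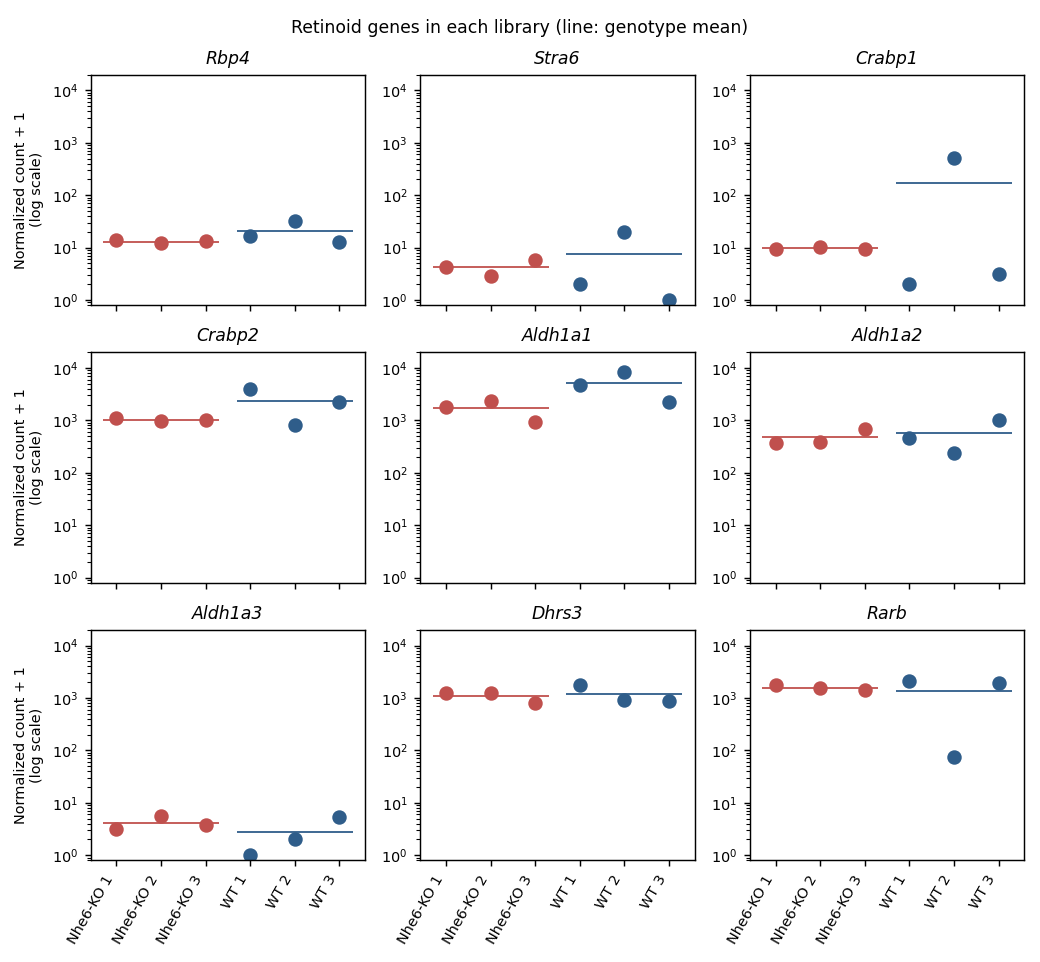
Normalized count plus 1 (log axis) of each of the 9 genes in the 3 *Nhe6*-knockout libraries (red) and the 3 wildtype libraries (blue), with a line at the mean of each genotype. Wildtype replicate 2 lies far from the other libraries for *Rarb* (73.2 normalized counts) and *Crabp1* (506), while *Stra6* and *Aldh1a3* are near 0 throughout.

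The genes of retinol delivery were barely detected. *Rbp4*, the plasma carrier of retinol, is at 38116629 to 38125281 of chromosome 19 (GRCm38, as for all positions below) and had 12, 12 and 13 reads in the *Nhe6*-knockout libraries and 16, 30 and 11 in the wildtype libraries. Its log2 fold change was -0.68 (standard error, SE, 0.49, 95% interval -1.85 to 0.49, edgeR adjusted p = 0.651), and the genotypes overlapped. Without wildtype replicate 2, its highest library, the value was -0.19 (SE 0.43). *Stra6*, the receptor through which retinol is taken up, lies on chromosome 9 from 58063788 to 58153996. Its reads numbered 3, 2 and 5 in the *Nhe6*-knockout libraries and 1, 18 and 0 in the wildtype libraries. Most of these reads were thus in wildtype replicate 2, and a count of 0 allows up to 3 reads. A genotype difference of *Stra6* was not detectable at this depth.

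The binding proteins of retinoic acid placed wildtype replicate 2 at opposite ends, lowest for *Crabp2* and highest for *Crabp1*. *Crabp2*, which carries retinoic acid to its nuclear receptors, lies on chromosome 3 from 87948666 to 87953376. It was counted at 1123, 972 and 999 normalized counts in the *Nhe6*-knockout libraries and 3964, 829 and 2260 in the wildtype libraries. Replicates 1 and 3 of the wildtype lay above every knockout library, and replicate 2 lay below all of them. The means were 1031 ± 80.7 (SD, n = 3) in knockout and 2351 ± 1570 (SD, n = 3) in wildtype cultures, and the fitted log2 fold change was -1.19 (SE 0.51, 95% interval -2.42 to 0.04, edgeR adjusted p = 0.437). Without wildtype replicate 2 the log2 fold change was -1.60 (SE 0.24, 95% interval -2.18 to -1.02), and *Crabp2* was then lower in knockout cells past the threshold (edgeR adjusted p = 0.0346). It was the only 1 of the 6 tested genes to pass in that fit, in which 2.88% of all genes tested passed and 1.26% were lower in knockout cells. Without wildtype replicate 1, its highest library, the value was -0.59 (edgeR adjusted p = 0.554). The adjusted p of *Crabp2* over 14 alternatives lay between 0.0346 and 0.937.

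*Crabp1*, its paralog in the cytosol, lies on chromosome 9 from 54764748 to 54773110 and was close to absent except in 1 library. The reads were 8, 10 and 9 in the *Nhe6*-knockout libraries and 1, 491 and 2 in the wildtype libraries. Wildtype replicate 2 therefore had 59.6 times the median of the other 5 libraries (506 against 8.49 normalized counts), while the other wildtype libraries lay below all knockout libraries, at no more than 2 reads. Fitted without a filter on low counts, the log2 fold change was -4.26 (SE 1.98, edgeR adjusted p = 0.543), a value that rests on 1 library. Per kilobase of exon, *Crabp2* made up 98.4% to 98.8% of the sum of both genes in knockout libraries and 100%, 49.8% and 99.8% in wildtype replicates 1 to 3. No stretch of 75 bases, the read length, is shared between the transcripts of these genes and those of any other gene.

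Among the retinaldehyde dehydrogenase transcripts *Aldh1a1* and *Aldh1a2* were well detected, with *Aldh1a3* near 0. *Aldh1a1* lies on chromosome 19 from 20492715 to 20643465 and had 1795, 2373 and 922 normalized counts in the *Nhe6*-knockout libraries and 4620, 8524 and 2202 in the wildtype libraries. The highest knockout library lay just above the lowest wildtype library, so the genotypes overlapped by this pair. Knockout cultures averaged 1697 ± 731 (SD, n = 3) and wildtype cultures 5116 ± 3190 (SD, n = 3), and the fitted log2 fold change was -1.59 (SE 0.55, 95% interval -2.93 to -0.26, edgeR unadjusted p = 0.0262, adjusted p = 0.339). Without wildtype replicate 2, its highest library, the log2 fold change was -1.01 (SE 0.45, edgeR adjusted p = 0.291). Across 14 alternatives it stayed between -1.96 and -1.01, and no adjusted p was under 0.05, the smallest being 0.0576 with DESeq2.

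*Aldh1a2*, the main retinoic acid producing enzyme of many embryonic tissues, lies on chromosome 9 from 71215789 to 71296243. It had 374, 379 and 677 normalized counts in the *Nhe6*-knockout libraries and 458, 238 and 1012 in the wildtype libraries. Replicate 3 was the highest library of each genotype, and wildtype replicate 2 was the lowest of all 6, the reverse of its place for *Aldh1a1*. The log2 fold change was -0.26 (SE 0.54, 95% interval -1.55 to 1.04, edgeR adjusted p = 0.896), and without wildtype replicate 3 it was 0.45. *Aldh1a3*, on chromosome 7 from 66390890 to 66427517, had 2, 5 and 3 reads in the *Nhe6*-knockout libraries and 0, 1 and 4 in the wildtype libraries.

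Per kilobase of exon, *Aldh1a1* made up 68.8%, 74.2% and 38.4% of the sum of *Aldh1a1* and *Aldh1a2* in the *Nhe6*-knockout libraries and 82.2%, 94.3% and 50% in the wildtype libraries. This averaged 60.5% ± 19.3 (SD, n = 3) in knockout and 75.5% ± 22.9 (SD, n = 3) in wildtype cultures, and the difference was within the spread between cultures (exact two-sided permutation test, p = 0.4, with 0.1 the smallest value that 3 against 3 allow). The share was lowest in replicate 3 of both genotypes.

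The neighbouring paralog *Aldh1a7*, on chromosome 19 from 20692953 to 20727562, set wildtype replicate 2 further apart than *Aldh1a1* did. It had 228, 212 and 208 normalized counts in the *Nhe6*-knockout libraries and 52.8, 6229 and 26.7 in the wildtype libraries. With all 6 libraries the log2 fold change was -3.28 (SE 1.87, edgeR adjusted p = 0.558), and without wildtype replicate 2 it turned to 2.43 (SE 0.34, adjusted p = 0.0325). Only 50 of its 1992 stretches of 75 bases (2.51%) also occur in *Aldh1a1* transcripts, so few reads could be assigned to both genes.

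**Figure D2:**
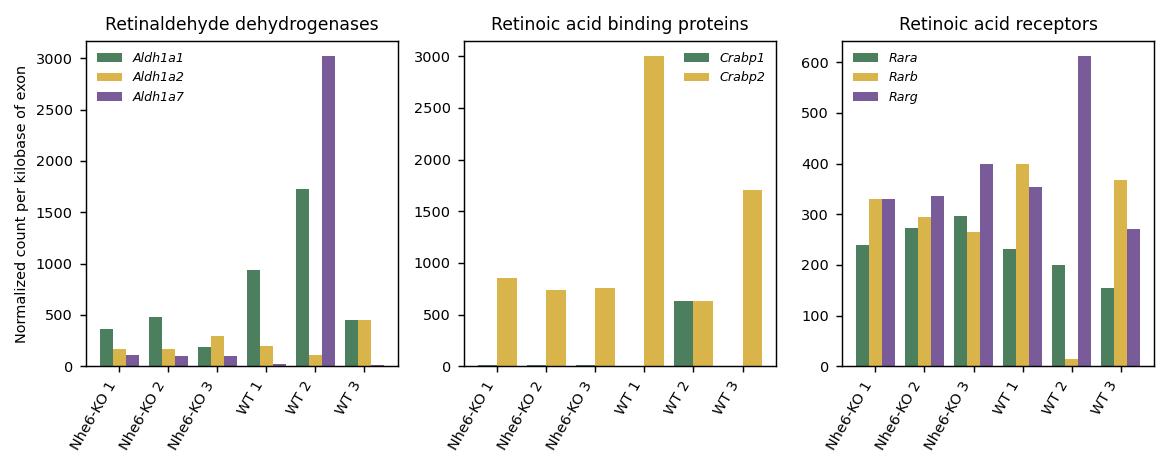
Normalized count per kilobase of exon (bars from 0) in each library for the retinaldehyde dehydrogenases *Aldh1a1* and *Aldh1a2* with the paralog *Aldh1a7*, for *Crabp1* and *Crabp2*, and for the 3 retinoic acid receptors. Wildtype replicate 2 shows high *Aldh1a7* (3020 per kilobase) and *Aldh1a1* (1730), *Crabp1* and *Crabp2* at like levels (631 and 627), and *Rarb* at 13.9.

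*Dhrs3*, which reduces retinaldehyde to retinol, was the steadiest of the well-detected genes. It lies on chromosome 4 from 144892827 to 144928209 and had 1229, 1263 and 808 normalized counts in the *Nhe6*-knockout libraries and 1781, 925 and 888 in the wildtype libraries. Its log2 fold change was -0.12 (SE 0.33, 95% interval -0.91 to 0.66, edgeR adjusted p = 0.922). It was the only 1 of the 6 tested genes for which wildtype replicate 2 lay within the range of the other libraries. The interval leaves differences of up to 0.91 on the log2 scale undecided.

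*Rarb* encodes the retinoic acid receptor beta and lies on chromosome 14 from 16430839 to 16819156, with the repeat shown above at one of its starts. It had 1735, 1552 and 1400 normalized counts in the *Nhe6*-knockout libraries and 2107, 73.2 and 1939 in the wildtype libraries. Wildtype replicate 2 was 23.7-fold below the median of the other 5 libraries, and the other 5 lay within 1400 to 2107. With all 6 libraries the log2 fold change was 0.19 (SE 0.96, 95% interval -2.13 to 2.50, edgeR adjusted p = 0.959). Without wildtype replicate 2 it was -0.38 (SE 0.13, 95% interval -0.70 to -0.05, edgeR unadjusted p = 0.0289, adjusted p = 0.198), each knockout library then being below both wildtype libraries, where 19.5% of all genes tested had an unadjusted p under 0.05. Among the 3 retinoic acid receptors, per kilobase of exon, *Rarb* made up 27.6% to 36.6% in knockout libraries and 40.6%, 1.69% and 46.4% in wildtype replicates 1 to 3. The exons of *Rarb* overlap those of *Top2b* and *Gm48162* on the opposite strand, and 32.1% of its stretches of 75 bases also occur in these genes. The strand setting of the counting is not given in the sources used here. *Top2b* had 6291 to 8589 normalized counts in the other 5 libraries and 9980 in wildtype replicate 2, so it was highest where *Rarb* was lowest.

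**Figure D3:**
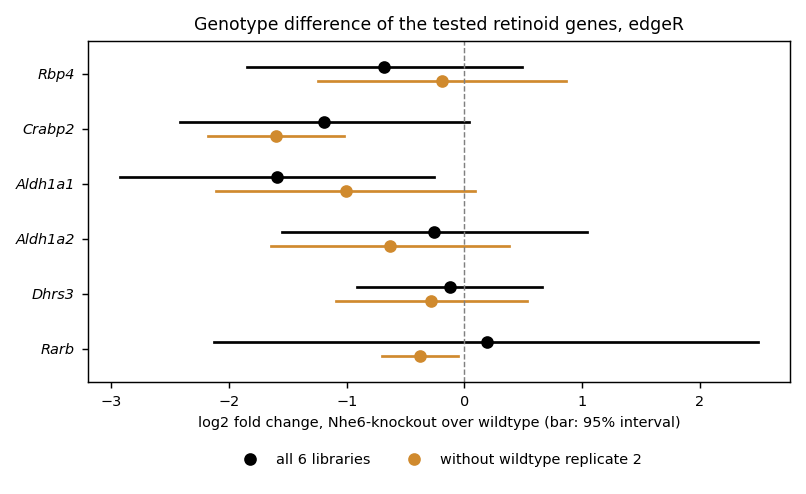
Log2 fold change of *Nhe6*-knockout over wildtype (points) with the 95% interval (bars) from edgeR for the 6 tested genes, with all 6 libraries (black) and without wildtype replicate 2 (orange). The interval of *Rarb* shrinks from -2.13 to 2.50 with all libraries to -0.70 to -0.05 without that library, and that of *Crabp2* moves to -2.18 to -1.02.

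By level per kilobase of exon, averaged over the 6 libraries, the order of the 9 genes was *Crabp2* (1280), *Aldh1a1* (690), *Dhrs3* (393), *Rarb* (279), *Aldh1a2* (231), *Crabp1* (111), *Rbp4* (11.7), *Stra6* (0.838) and *Aldh1a3* (0.538). The order was not stable within the upper 5 genes, since the ranges over libraries of each pair of neighbours overlapped. *Crabp1* holds its place through wildtype replicate 2 alone.

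The rest of the pathway was read from a list of 58 further genes by role, of which 41 were tested. With all 6 libraries 0 of them passed an adjusted p of 0.05 in edgeR's test or in DESeq2's, where *Aldh1a7* got no adjusted p. An unadjusted p under 0.05 in edgeR's test was found for 7, of which 4 were lower and 3 higher in knockout cells, against 11.8% of all genes tested. Their log2 fold changes were below 0 for 20 and above 0 for 21, with a median of 0.05. Genotypes did not overlap for 5 of the 41, against 19.9% of all genes tested.

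Genes of uptake and storage gave few reads or overlapped between the genotypes. *Lrat*, which makes retinyl esters for storage, had 0 reads in each library. *Lrp2*, the endocytic receptor megalin that can take up the retinol carrier, ranged from 132 to 530 normalized counts in knockout and from 70.1 to 282 in wildtype libraries (edgeR adjusted p = 0.528).

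Of the 14 tested genes of retinol and retinaldehyde interconversion, 3 had knockout libraries all below the wildtype libraries, against 9.54% of all genes tested, without passing the adjusted threshold. *Rdh14*, a retinol dehydrogenase, had 572, 568 and 576 normalized counts in knockout and 832, 693 and 817 in wildtype libraries, a log2 fold change of -0.45 (SE 0.13, edgeR adjusted p = 0.263). *Dhrs9* had 4 to 9 reads in knockout and 18 to 25 in wildtype libraries (log2 fold change -2.0, SE 0.48, edgeR adjusted p = 0.173). *Adh1*, an alcohol dehydrogenase that clears retinol, had 22.3 to 31.2 normalized counts in knockout and 38.1 to 108 in wildtype libraries (edgeR adjusted p = 0.363). *Rdh10*, the main retinol dehydrogenase of the embryo, had 205 to 239 normalized counts in 5 libraries and 449 in wildtype replicate 2. *Adh7*, which oxidises retinol, had 4 to 8 reads in 5 libraries and 325 in wildtype replicate 2, the same library that held most *Crabp1* reads. *Adh5* (3220 to 3707) and *Akr1b8* (971 to 1612) were well detected and overlapped between the genotypes.

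Among the listed genes of retinoic acid breakdown only *Cyp26b1* was detected, since *Cyp26a1* and *Cyp26c1* had 0 reads in each library. *Cyp26b1* had 424, 374 and 1453 normalized counts in the *Nhe6*-knockout libraries and 1226, 4124 and 2033 in the wildtype libraries. Knockout replicate 3 lay above the lowest wildtype library, so the genotypes overlapped, with a log2 fold change of -1.71 (SE 0.68, edgeR unadjusted p = 0.0418, adjusted p = 0.399). Without wildtype replicate 2, its highest library, the value was -1.12 (adjusted p = 0.382).

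Of the other nuclear receptors, *Rara* had 1044, 1185 and 1292 normalized counts in knockout and 1011, 867 and 677 in wildtype libraries, with no overlap but without passing the threshold (log2 fold change 0.46, SE 0.18, edgeR adjusted p = 0.399). *Rarg* had 1155 to 1704 in 5 libraries and 2609 in wildtype replicate 2. *Rxra*, which encodes the partner RXRα, had 3891 to 4174 in knockout and 2238 to 5289 in wildtype libraries. *Rxrb* had 734 to 1165 over the 6 libraries, and *Rxrg* had reads only in wildtype replicate 2, at 4.12 normalized counts. Coregulators were present throughout, the coactivators *Ncoa1*, *Ncoa2* and *Ncoa3* at 1295 to 3399 and the corepressor *Ncor1* at 5240 to 8232, with 6 of 6 coregulators tested and 0 passing. Another corepressor, *Nrip1*, had a log2 fold change of 0.54 (SE 0.20, edgeR adjusted p = 0.367).

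Of 8 tested genes listed as known targets of retinoic acid, 7 had a log2 fold change above 0 with all 6 libraries (median 0.52), against 48.1% of all genes tested, and 0 passed. The list leaves out the textbook targets named above, *Rarb*, *Dhrs3*, *Stra6* and *Cyp26a1*. Those of them that were tested, *Rarb* and *Dhrs3*, had log2 fold changes of 0.19 and -0.12. Wildtype replicate 2 lay below all other libraries for 5 of the 8 listed genes, against 26.6% of all genes tested. *Meis2*, a homeobox gene, had 2536 to 2665 in knockout and 2069 to 2260 in wildtype libraries, without overlap (log2 fold change 0.25, SE 0.10, edgeR adjusted p = 0.416). *Rarres2*, which encodes chemerin, had 17.5 normalized counts there against 189 to 326 elsewhere. *Tgm2*, a transglutaminase, had 748 there against 2855 to 7320 elsewhere. *Rarres1* went the other way, with 2950 in that library against 174 to 1006. Without wildtype replicate 2, the median of the 8 was 0.29 and 1 passed, *Rai14* (log2 fold change 1.13, SE 0.12, edgeR adjusted p = 0.0203). Of the 41 genes of the whole list tested in that fit, 2 passed, *Aldh1a7* and *Rai14*, both higher in knockout cells. Among all genes tested in that fit, 1.62% passed and were higher in knockout cells.

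**Figure D4:**
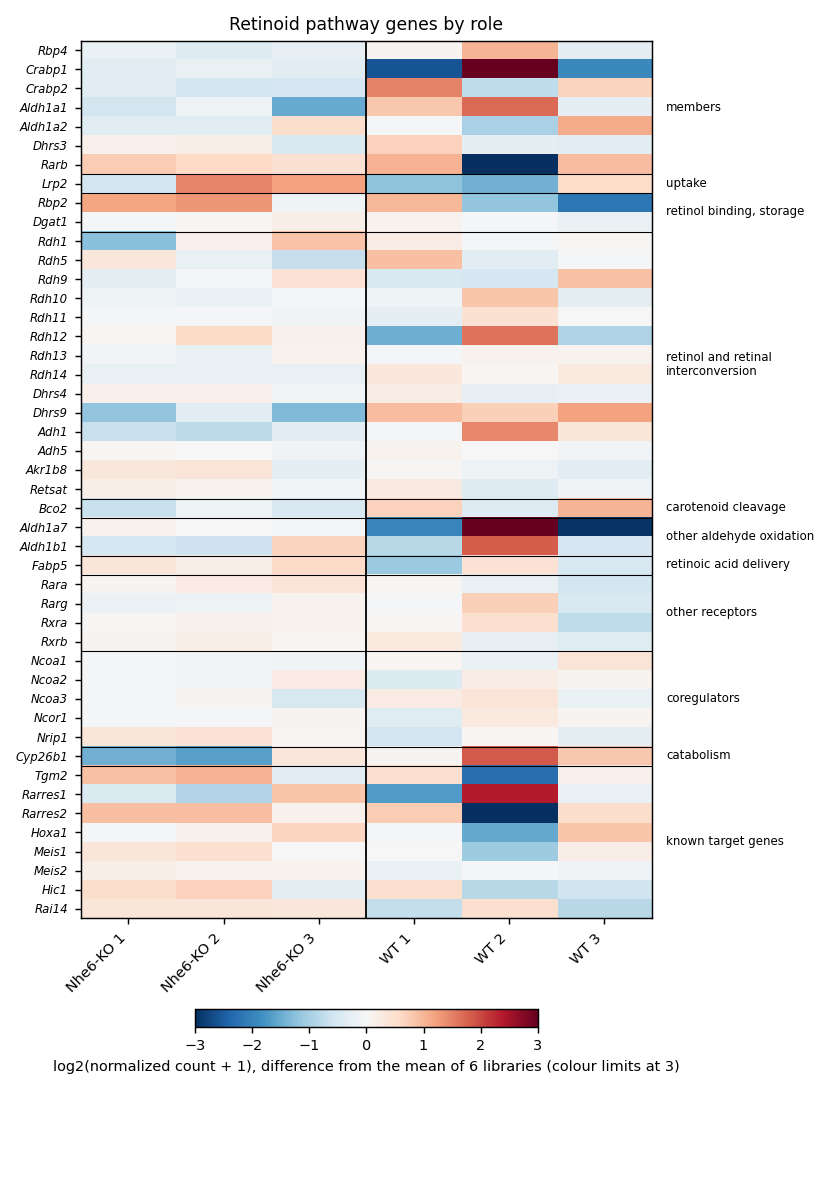
Log2 of the normalized count plus 1, as the difference from the mean of the 6 libraries (colour, limits at 3), for 7 of the 9 retinoid genes (without *Stra6* and *Aldh1a3*) and most of the tested pathway genes by role, with *Nhe6*-knockout libraries left of the line. Wildtype replicate 2 has most of the strongest colours, high for *Crabp1* and *Aldh1a7* and low for *Rarb* and *Rarres2*.

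The genes whose profile over the 6 libraries came closest to each retinoid gene were named by the smallest root mean square difference of centred log2 values, among genes with at least 50 normalized counts on average, as a description. For *Rarb* these were *Lrrn2* (0.15 on the log2 scale) and *Vav3* (0.22), both with at most 32.0 normalized counts in wildtype replicate 2. For *Crabp1* they were *Col1a1* (0.44), a chain of collagen I with 27158 normalized counts in that library against 207 to 1227 elsewhere, and *Gcnt1* (0.52). *Crabp2* was closest to *Wfikkn2* (0.12) and *Scara5* (0.23), and *Aldh1a1* to *Aqp1* (0.21), a water channel, and *E030003E18Rik* (0.22). For *Aldh1a2* they were *Mme* and *1700029J07Rik* (0.15 each), and for *Dhrs3*, the gene that varied least, *Arrdc2* and *Cxx1b* (0.08 each).

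Wildtype replicate 2, which stood apart for *Rarb*, *Crabp1* and *Aldh1a1*, lay outside the other libraries in some but not all sums of marker lists. The summed normalized counts of 12 macrophage markers were 114 in that library, against 758 and 1919 in the other wildtype libraries and 770 to 1789 in knockout libraries. The sum of 12 fibroblast markers was 411376 there against 277740 to 317176 elsewhere, and that of 12 mural markers 35279 against 16343 to 24461. A single mural marker, *Acta2*, gave 16257 of that sum there, against 29.3 to 1204 elsewhere. The fibroblast markers did not all move alike. *Col1a1* was highest there, at 27158 against 207 to 1227 elsewhere, and *Pdgfra* lowest there, at 10076 against 13013 to 19048. The 15 endothelial markers summed to 16090 there against 16893 to 25938 elsewhere. Most of the sum elsewhere came from *Emcn*, an endothelial sialomucin, at 409 there against 9897 to 18387. *Cdh5* went the other way and was highest there, at 5194 against 179 to 3469. Sums of 10 melanocyte and intermediate cell markers were 288 there and 411 to 1185 elsewhere. For 10 epithelial and marginal cell markers the sums were 88.7 there and 72.9 to 1205 elsewhere, with *Kcne1* at 0 in all 6 libraries, and for 8 glial markers 815 and 424 to 824. Beside the lower *Crabp2* without wildtype replicate 2, the sums of 16 cell cycle genes were 8521 to 15407 in knockout and 2629 to 3984 in wildtype libraries (exact permutation test, p = 0.1, the smallest possible). The part of these cell types and of the growth of the cultures in the values of the retinoid genes was not tested.

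**Figure D5:**
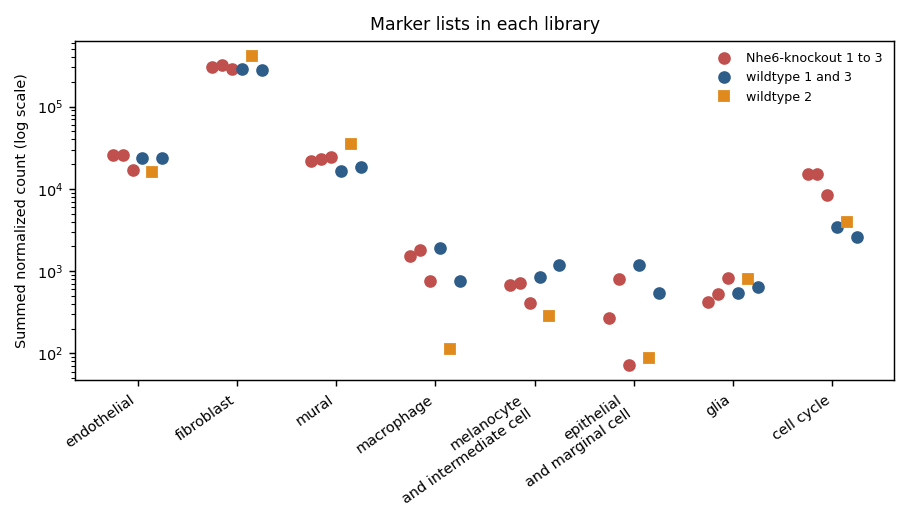
Summed normalized counts (log axis) of each marker list in each library, with *Nhe6*-knockout in red, wildtype replicates 1 and 3 in blue and wildtype replicate 2 as orange squares. Wildtype replicate 2 is lowest for macrophage markers (114) and highest for fibroblast (411376) and mural markers (35279, of which *Acta2* gave 16257), while cell cycle genes are higher in each knockout library.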

How the data were processed

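The 6 libraries were poly(A)-enriched, stranded and sequenced with 75 cycles. The submitters' processing notes name bcl2fastq 2.20.0.422, STAR 2.7.7a, HTSeq 0.13.5, DESeq2 1.26.0 and the build mm10, without their settings. The deposited values are raw read counts per gene symbol in 1 table, without normalization, with 5 summary lines (22.2% of reads) that were left out. Columns were matched to cultures by genotype and replicate number. No label says whether cultures of a genotype came from separate litters, so p-values measure the spread between these cultures.

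Genes were filtered with filterByExpr (minimum count 10), normalized with TMM and compared in R 4.3.3 by quasi-likelihood (glmQLFTest, edgeR 4.0.16, two-sided), with p-values adjusted by Benjamini-Hochberg over 13479 genes. The standard error is the log2 fold change divided by the square root of F. DESeq2 1.42.0, limma-voom (limma 3.58.1), other normalizations and filters, a replicate block and each culture left out were alternatives. Methods were tested on simulated counts. Positions, exon lengths and shared stretches of 75 bases came from GENCODE M21 (GRCm38), promoters from RefSeq (GRCm38.p6). Levels were compared between genes per kilobase of all annotated exons. The genes and lists were chosen with earlier results of these data known. Named first were the 9 genes, listed pathway genes with an unadjusted p under 0.05 or at least 1000 normalized counts on average, *Cyp26a1*, *Cyp26b1*, the receptors and the label checks, and then other listed genes and the 2 closest profiles of each gene (log2 of the normalized count plus 2, means of at least 50). *Top2b*, *Gm48162*, *Emcn*, *Acta2*, *Kcne1* and the shares between paralogs were chosen after their values were seen. Some genes are not reported here.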

Additional observations from a re-analysis of the deposited data

How the results depend on the processing

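The number of all genes past an adjusted p of 0.05, 9 with all 6 libraries, was 21 without a filter beyond 1 count and 21 with at least 10 counts in every library, 627 with DESeq2's Wald test, 2 with the replicate block and 0 to 395 with 1 culture left out, the 395 without wildtype replicate 2. It was 1 with *Nhe6*-knockout replicates 1 and 2 summed, an alternative added after seeing the data. For the 9 retinoid genes the number was 0 to 1 with 1 culture left out, and for the 58 other pathway genes 0 to 2, in both cases above 0 only without wildtype replicate 2. It was 0 in each of the other 13 alternatives for both lists. Of 84 values of the 6 tested retinoid genes under alternatives, 79 kept direction and side of the threshold, 1 passed it (*Crabp2* without wildtype replicate 2) and 4 turned direction. These were *Aldh1a2* without wildtype replicate 3 (0.45), *Rarb* without wildtype replicate 2 (-0.38), and *Dhrs3* without *Nhe6*-knockout replicate 3 (0.05) and without wildtype replicate 1 (0.27), and the cause was not tested. With 1 culture left out their log2 fold changes ran from -0.63 to 0.45 (*Aldh1a2*), -0.38 to 0.63 (*Rarb*) and -0.31 to 0.27 (*Dhrs3*), beside -1.60 to -0.59 for *Crabp2*. Over all genes tested, replicate numbers gave no sign of pairing, with correlations of deviations of 0.207, -0.189 and 0.111 for numbers 1 to 3. The replicate block changed no call of the retinoid genes. It did lower the edgeR unadjusted p of *Aldh1a1* from 0.0262 to 0.000566 and the adjusted p from 0.339 to 0.103. Depth limits *Stra6*, *Aldh1a3* and *Rbp4*, with at most 30 reads in any library, and intervals cover only the spread of these cultures.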

Other observations

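The aldehyde dehydrogenase family beyond the genes above was examined after the values of *Aldh1a1* and *Aldh1a7* had been seen. Of 15 such genes listed, 13 were tested, whose log2 fold changes had a median of -0.13 and ran from -1.32 to 0.59. In edgeR's test 0 passed an adjusted p of 0.05, and 1 of the 13 had an unadjusted p under 0.05, below the 11.8% of all genes tested. This was *Aldh3a2*, which oxidises long-chain fatty aldehydes. *Aldh3a2* had 2372, 2393 and 2467 normalized counts in *Nhe6*-knockout and 2727, 3455 and 3801 in wildtype libraries, a log2 fold change of -0.47 (SE 0.15, edgeR adjusted p = 0.293). The folate enzyme gene *Aldh1l1* was again highest in wildtype replicate 2, at 472 normalized counts against 18.0 to 134 elsewhere, while *Aldh2*, the mitochondrial enzyme of acetaldehyde clearance, was lowest there, at 5607 against 7437 to 14462. Wildtype replicate 2 lay outside the range of the other libraries for 11 of these 13 genes, against 53.3% of all genes tested. *Fabp5*, which can carry retinoic acid to another nuclear receptor, had 229 to 298 normalized counts in knockout libraries and 90.9, 268 and 143 in wildtype replicates 1 to 3 (log2 fold change 0.64, SE 0.40, edgeR adjusted p = 0.608).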
